A study of Mus musculus with 12 samples.

Results

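The mRNAs described here encode enzymes of the mitochondrial tricarboxylic acid (TCA) cycle and cytosolic counterparts of some of them. They also encode proteins for the entry of pyruvate, glutamate and aspartate carbon into the cycle, the carriers that move its intermediates, and Acod1, the enzyme that diverts cis-aconitate to itaconate. They are 35 genes listed by name for their place in the pathway, out of 47937 genes in the count table. All 35 were found once by Ensembl ID and all 35 passed the filter on low counts, which 11760 genes passed in all. Acod1 passed through the activated libraries alone, where it is high, so the counts of calls below are over the other 34. They were read in bone marrow-derived macrophages of C57BL/6 mice, grown for 7 days with macrophage colony-stimulating factor 1 (CSF-1), in 4 groups of 3 libraries.

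The M0 group was resting macrophages with no further treatment named. The IFNγ + LPS group received 50 ng/ml interferon-γ and 20 ng/ml lipopolysaccharide. The M0 + DGAT1i group was resting macrophages given T863 at 50 µM, an inhibitor of DGAT1, an acyltransferase that makes triacylglycerol from diacylglycerol. The IFNγ + LPS + DGAT1i group received both cytokine with LPS and T863. The titles of the groups other than M0 give 18 h. The labels name no vehicle for the groups without T863. The description of 2 of the 3 M0 + DGAT1i libraries gives the compound as T864 and T865, while their source name gives T863. Nothing in the labels says that the libraries of a group came from separate mice or cultures, so the p-values measure the spread between these libraries, which may be technical. The comparisons ask which of these mRNAs activation changed, which the inhibitor changed in activated and in resting cells, and whether those 2 responses to the inhibitor differed.

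As background, the cycle oxidises acetyl groups to CO2 and passes the electrons to the respiratory chain, in part through succinate dehydrogenase, which is an enzyme of the cycle and a complex of that chain. In macrophages activated by LPS, isocitrate oxidation and succinate oxidation are known as points where flux through the cycle is interrupted. Citrate can then leave the mitochondrion for lipid synthesis, and cis-aconitate can be decarboxylated to itaconate, which inhibits succinate dehydrogenase. The measurements below are of mRNA only, and no metabolite or enzyme activity is among them.

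Promoters of 4 members are shown to give the sequence upstream of the mRNAs on which the comparisons turn. RefSeq promoter windows of GRCm38.p6, each running from 250 bases before to 50 bases after an annotated transcript start, matched 32 of the 35 members, and Pdp1, Idh3a and Sdhc had no entry. The 250 bases before the start are printed 5′ to 3′ on the strand of the gene. Acod1 is shown for the greatest change with activation, and its capitals mark TATAAA. Suclg2 is shown as the member holding GAAANNGAAA (ISRE, the element of interferon-stimulated genes), which lies on the opposite strand and is in capitals. Sdhd, a member that rose, and Sdha, which differed less with activation, are shown for GCGCANGCGC (NRF1, nuclear respiratory factor 1), in capitals.
Acod1 (chr14:103046762-103047011, plus strand): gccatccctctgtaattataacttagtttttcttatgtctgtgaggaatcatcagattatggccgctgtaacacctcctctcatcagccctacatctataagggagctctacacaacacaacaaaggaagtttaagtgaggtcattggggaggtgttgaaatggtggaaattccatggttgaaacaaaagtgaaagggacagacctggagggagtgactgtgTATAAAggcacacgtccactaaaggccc
Suclg2 (chr6:95718847-95719096, minus strand): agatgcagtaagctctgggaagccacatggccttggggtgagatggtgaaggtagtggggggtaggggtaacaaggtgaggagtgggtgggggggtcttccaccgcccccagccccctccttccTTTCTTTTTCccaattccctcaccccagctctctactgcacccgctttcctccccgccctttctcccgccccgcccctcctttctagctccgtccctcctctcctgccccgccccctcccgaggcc
Sdhd (chr9:50603850-50604099, minus strand): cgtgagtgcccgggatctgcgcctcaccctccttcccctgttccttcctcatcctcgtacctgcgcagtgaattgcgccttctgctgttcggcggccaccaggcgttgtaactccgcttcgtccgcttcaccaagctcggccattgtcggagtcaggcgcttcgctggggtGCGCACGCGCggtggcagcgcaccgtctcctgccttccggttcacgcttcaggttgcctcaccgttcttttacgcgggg
Sdha (chr13:74350241-74350490, minus strand): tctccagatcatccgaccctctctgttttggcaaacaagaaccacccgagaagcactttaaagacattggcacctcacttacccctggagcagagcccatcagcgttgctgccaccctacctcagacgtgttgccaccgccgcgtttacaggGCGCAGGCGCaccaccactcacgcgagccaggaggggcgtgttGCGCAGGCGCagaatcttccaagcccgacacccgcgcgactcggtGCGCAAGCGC

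The TATAAA of Acod1 lay 28 to 23 bases before the start, and was added to the search after the sequence had been read. It was found in 2 of 32 members, Acod1 and Got2, against 15.7% of all 27025 genes with a window. Motifs were searched on both strands of the whole window, and no match of a motif overlapped a match of another motif in a member. GCGCANGCGC was held by 4 of 32 members (12.5%), against 5.19% of all genes. It occurred 3 times upstream of Sdha and once each in Sdhd, Sucla2 and Dld. TGACGTNA (CRE) was held by 4 members, namely Pdhb, Ogdh, Mdh2 and Slc25a1, against 3.36% of all genes. GGGCGG (SP1) was held by 23 of 32 members (71.9%), against 38.2% of all genes. GAAANNGAAA was held by Suclg2 alone among the 32 members, against 3.99% of all genes. TTCNNNGAA (GAS) was found in 0 of the 32 members, against 9.55% of all genes. GGGANNNTCC (kB) was held by Idh2 and Slc25a10, against 5.21%, AAGGTCA (ERR) by Ogdh, Sdhd and Got1, against 5.38%, and CACGTG (E-box) by Pcx, Ogdh and Slc25a1, against 8.09%. A match is only a run of letters in this window, and its absence says only that the letters are not there.

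The libraries held 4996014 to 6621671 reads in genes. Levels are given as CPM, reads scaled to a common library size by the trimmed mean of M values (TMM), and 1 CPM stood for 4.283 to 7.578 reads. Log2 CPM of replicates correlated at 0.9876 or above over genes. All 7 macrophage markers were tested, and summed to 12944 to 14197 CPM in M0, 8225 to 8876 in IFNγ + LPS, 15951 to 17985 in M0 + DGAT1i and 7818 to 8775 in IFNγ + LPS + DGAT1i. Of these sums Lyz2 alone had means of 9641, 2956, 13045 and 3107 CPM, in the same order. The T and NK cell markers were at 0, and the B cell markers reached at most 0.562 CPM in sum. The share of reads from mitochondrially encoded genes was 4.72 to 4.86% in M0, 3.88 to 4.21% in IFNγ + LPS, 5.56 to 6.19% in M0 + DGAT1i and 4.52 to 5.32% in IFNγ + LPS + DGAT1i. It was thus higher with T863 in both states, and its part in the results below was not tested.

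With IFNγ + LPS, Acod1 went from near absence to among the most abundant mRNAs, while the other members changed unevenly. The mRNAs for isocitrate dehydrogenases 1 and 2, the GTP-forming succinyl-CoA synthetase subunit, fumarase, cytosolic malate dehydrogenase and glutamate dehydrogenase fell by between 1.59-fold and 7.87-fold. The mRNAs for the succinate dehydrogenase subunits Sdhb and Sdhd and for cytosolic aspartate aminotransferase (Got1) rose by 1.78-fold to 1.90-fold. Tested with edgeR (quasi-likelihood, p adjusted over all genes and called under 0.05), 18 of the 34 members rose, 11 fell and 5 did not pass, against 37.1% of all genes tested that rose and 36.2% that fell. The median log2 fold change of the 34 members was 0.18, and that of all genes 0.01. Scaling to library size alone moved the median of all genes to -0.46, gave 5 of the 34 higher and 20 lower, and turned the sign of 9 of the 18 members that rose. The 5 that stayed called higher were Mpc1, Dlst, Sdhb, Sdhd and Got1. In bulk RNA, fewer cells of a type and less RNA per cell cannot be told apart.

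**Figure D1:**
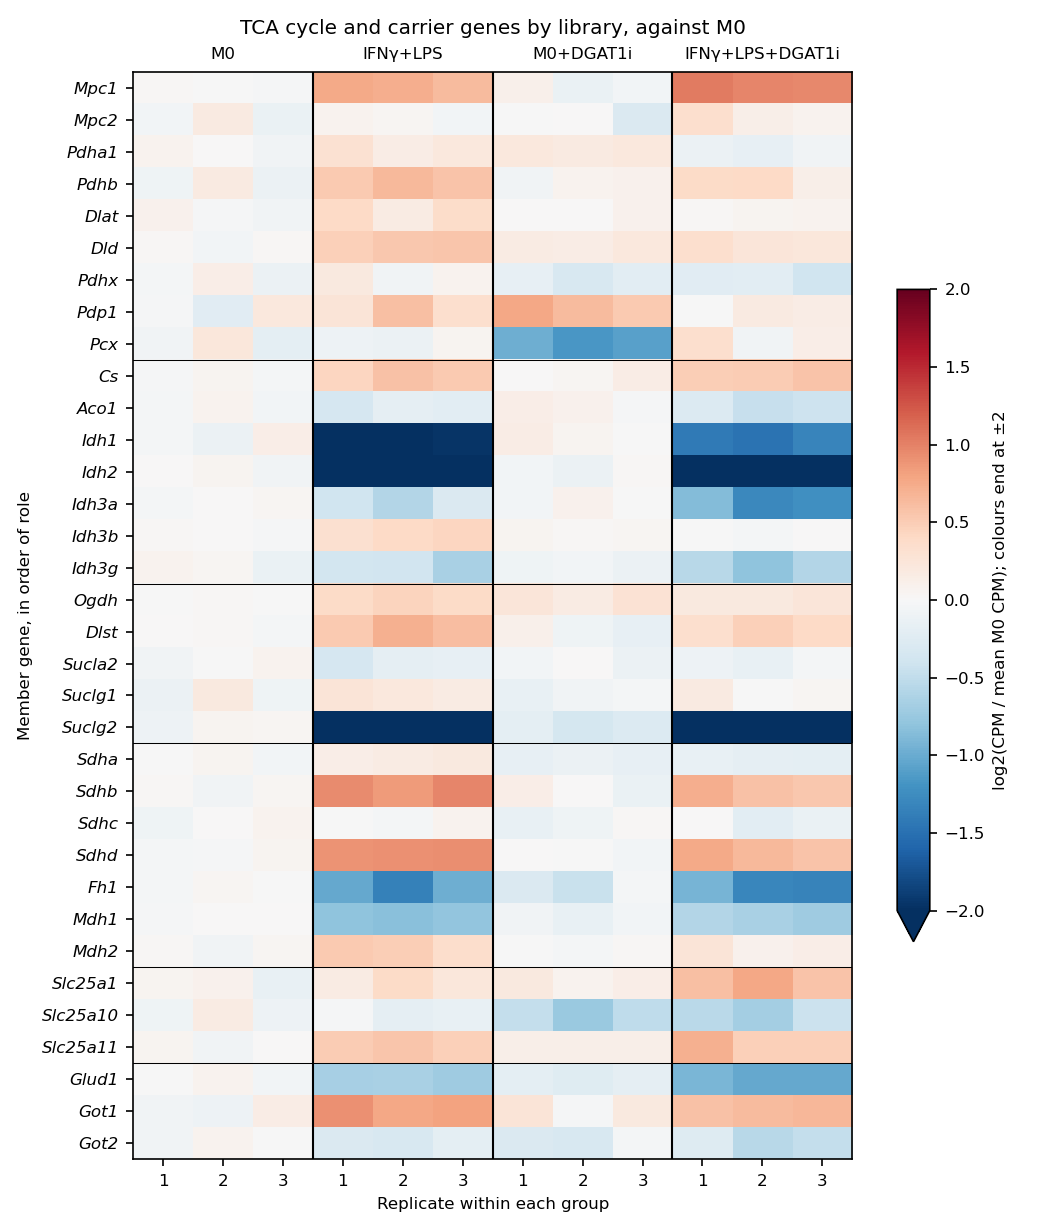
Level of 34 members (rows, grouped by role; Acod1 is left out) in each of the 12 libraries (columns), as log2 of TMM-scaled CPM over the mean of the 3 M0 libraries. Idh1, Idh2 and Suclg2 are dark blue in the IFNγ + LPS libraries, Sdhb and Sdhd are red there, and Pcx is blue in M0 + DGAT1i. With library size alone as the scale, the values of the IFNγ + LPS libraries would be lower and 12 members would change sign.

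Acod1 (ENSMUSG00000022126.6, chr14:103046977-103056573, plus strand, GRCm38) encodes cis-aconitate decarboxylase. Its reads in the 3 M0 libraries were 0, 2 and 0, and in IFNγ + LPS they were 24397, 30396 and 27809. These are 5137, 5472 and 5209 CPM in the activated libraries, a mean of 5273 ± 176 (SD, n = 3). The groups lie far apart, and in the activated libraries Acod1 ranked from 19th to 21st among all genes. The 82602 reads against 2 gave a ratio of 56964 (95% exact interval 15769 to 470376, counting error only). Acod1 took 0.443 to 0.462% of all reads in those libraries. The other 34 members in sum took 0.241 to 0.246% of the reads there.

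Of the 9 members of pyruvate entry, 6 rose and 0 fell under TMM, but with library size alone, which called 19.9% of all genes higher and 59.5% lower, 1 was higher and 4 were lower. Under TMM these shares were 37.1% and 36.2%. Mpc1, a subunit of the mitochondrial pyruvate carrier, was at 30.2, 29.6 and 29.0 CPM in M0 and at 50.1, 48.8 and 45.7 CPM in IFNγ + LPS. It rose 1.63-fold (log2 0.70, SE 0.09, adjusted p = 4.44e-10), and by 0.23 on the log2 scale with library size alone. Mpc2, its partner subunit, was at 24.1 ± 2.72 and 24.4 ± 1.05 CPM and did not pass (adjusted p = 0.918). Of the pyruvate dehydrogenase complex, which makes acetyl-CoA, Pdhb (log2 0.58) and Dld (0.52) rose under TMM, and at 0.11 and 0.05 were not called with library size alone. Pdha1 (log2 0.22) and Dlat (0.31) and the activating phosphatase Pdp1 (0.41) rose under TMM and were below 0 with library size alone. Pdhx (0.06), which tethers Dld in the complex, and Pcx (-0.06), the carboxylase that makes oxaloacetate from pyruvate, did not pass. With library size alone, Mpc2 (-0.46), Pdha1 (-0.25), Pdhx (-0.41) and Pcx (-0.52) were the 4 called lower.

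From citrate to 2-oxoglutarate, 2 of 7 members rose and 5 fell, against 37.1% and 36.2% of all genes. Idh2 (ENSMUSG00000030541.16, chr7:80094846-80115392), the mitochondrial NADP-dependent isocitrate dehydrogenase, was at 77.3, 79.4 and 73.0 CPM in M0 and at 9.05, 10.4 and 9.55 CPM in IFNγ + LPS. Idh1 (ENSMUSG00000025950.16, chr1:65158616-65186500), its cytosolic counterpart, was at 170.1, 160.2 and 191 CPM in M0 and at 35.4, 39.4 and 44.8 CPM in IFNγ + LPS. Every activated library lay below every M0 library for both genes. Idh2 fell 7.87-fold (log2 -2.98, SE 0.10, adjusted p = 9.82e-33) and Idh1 fell 4.35-fold (log2 -2.12, SE 0.08, adjusted p = 3.00e-30). The NAD-dependent enzyme of the cycle, IDH3, moved less and not as a unit. Its catalytic subunit Idh3a fell by 0.42 (SE 0.10) and its regulatory subunit Idh3g by 0.46 (SE 0.09) on the log2 scale. Idh3b rose by 0.38 (SE 0.06) under TMM, but was below 0 with library size alone. Cs, citrate synthase, rose from 163, 171 and 162 CPM to 223, 249.7 and 237 CPM (log2 0.52, SE 0.06) under TMM, and was at 0.05 and not called with library size alone. Aco1, the cytosolic aconitase and iron regulatory protein, fell by 0.24 (SE 0.07).

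From 2-oxoglutarate to succinate, 3 of 5 members rose and 2 fell, against 37.1% and 36.2% of all genes. Suclg2 (ENSMUSG00000061838.7, chr6:95473009-95718800), the subunit that makes succinyl-CoA synthetase GTP-forming, was at 26.2, 29.3 and 29.1 CPM in M0 and at 5.90, 6.48 and 6.74 CPM in IFNγ + LPS. The groups did not overlap, and it fell 4.40-fold (log2 -2.14, SE 0.14, adjusted p = 3.34e-20). Sucla2, the subunit that makes the same enzyme ATP-forming, differed by -0.22 (SE 0.08, adjusted p = 0.0150) and was not called by DESeq2 on 6 libraries (0.0545). Suclg1, the subunit shared by both forms, differed by 0.21 (SE 0.09, adjusted p = 0.0249) under TMM and was called lower with library size alone (-0.26). It was not called by DESeq2 on 12 (0.0945) or 6 libraries (0.116), nor with no filter on low counts (0.0641). Of the 2-oxoglutarate dehydrogenase complex, Dlst rose by 0.62 (SE 0.06), or 0.15 with library size alone, and Ogdh by 0.41 (SE 0.06) under TMM but was below 0 with library size alone.

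Succinate dehydrogenase rose in the subunits Sdhb and Sdhd. Sdhb (ENSMUSG00000009863.14, chr4:140961203-140979193), the iron-sulfur subunit, was at 81.5, 77.1 and 83.1 CPM in M0 and at 156, 145 and 159 CPM in IFNγ + LPS (log2 0.93, SE 0.07, adjusted p = 8.34e-19). Sdhd (ENSMUSG00000000171.4, chr9:50596357-50603812), a membrane anchor, was at 76.0, 76.6 and 81.0 CPM and at 144, 146 and 149 CPM (log2 0.91, SE 0.06, adjusted p = 1.31e-19). For both genes every activated library was above every M0 library, and with library size alone the rises were 0.46 and 0.44. Sdha, the flavoprotein subunit that oxidises succinate, rose by 0.16 (SE 0.05) under TMM and was called lower with library size alone (-0.30). Sdhc, the other membrane anchor, was at 92.4 ± 5.15 and 92.8 ± 4.07 CPM (log2 0.01, SE 0.07, adjusted p = 0.933), and called lower with library size alone (-0.46). Downstream of succinate, Fh1, fumarase, went from 49.8, 52.9 and 51.0 CPM to 25.3, 20.0 and 26.0 CPM, a fall of 2.16-fold (log2 -1.11, SE 0.11). Mdh1, cytosolic malate dehydrogenase, fell from 143, 146 and 145 CPM to 82.7, 81.0 and 83.7 CPM, or 1.75-fold (log2 -0.81, SE 0.06). Mdh2, the mitochondrial enzyme, rose by 0.46 (SE 0.06) under TMM and was at -0.01 with library size alone.

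Of the carriers, Slc25a11, which exchanges 2-oxoglutarate for malate, rose by 0.51 (SE 0.06) under TMM, and was at 0.04 and not called with library size alone. Slc25a1, which exports citrate, rose by 0.26 (SE 0.08) under TMM and was called lower with library size alone (-0.21). Slc25a10, the dicarboxylate carrier, did not pass (log2 -0.12, SE 0.09, adjusted p = 0.225), but was called lower with library size alone (-0.59). Glud1, glutamate dehydrogenase, fell from 258, 269.9 and 248 CPM to 163, 165 and 158 CPM (log2 -0.67, SE 0.05, adjusted p = 1.31e-16). Got1, cytosolic aspartate aminotransferase, rose from 38.2, 37.3 and 44.3 CPM to 75.2, 68.6 and 70.1 CPM (log2 0.83, SE 0.08, adjusted p = 1.57e-13), or by 0.36 with library size alone. Got2, the mitochondrial aminotransferase, fell by 0.27 (SE 0.07). The M0 and activated libraries did not overlap for either Glud1 or Got1.

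Of the 29 calls with activation, 26 held whichever library was left out. Slc25a1 lost its call without IFNγ + LPS replicate 2 (adjusted p = 0.0521), Sucla2 without M0 replicate 3 or IFNγ + LPS replicate 1 (up to 0.102), and Suclg1 without M0 replicate 1 or 3 or IFNγ + LPS replicate 1 (up to 0.135). Markers of neutrophils, which arise from the same marrow, also differed with activation. All 3 tested were lower, against 36.2% of all genes tested, and the 6 listed summed to 20.6 to 26.5 CPM in M0 and 2.95 to 6.66 CPM in IFNγ + LPS. The 4 dendritic cell markers, of which 1 was tested and rose, summed to 0.133 to 0.557 CPM in M0 and to 2.81 to 6.12 CPM in IFNγ + LPS, and the 4 stromal markers, of which 0 were tested, to at most 0.139 and 2.11 CPM. The sum of the macrophage markers was lower in IFNγ + LPS, with 3 higher and 4 lower. Among the lower was Lyz2, which went from a mean of 9641 CPM in M0 to 2956 CPM. The higher were Adgre1 (1316 to 2706 CPM), Fcgr1 (91.1 to 857) and Mertk (71.4 to 459). The part of these markers in the result was not tested.

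**Figure D2:**
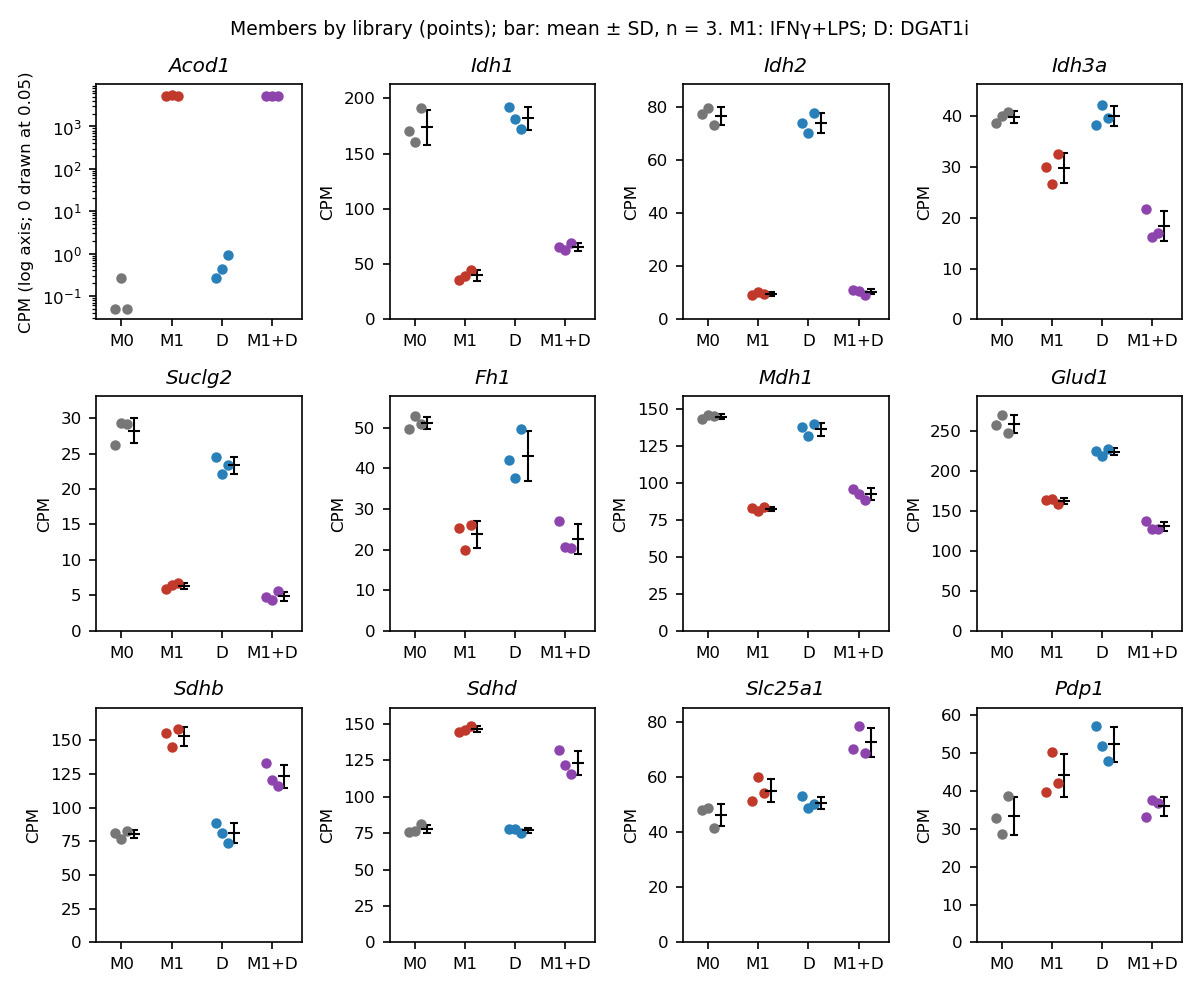
TMM-scaled CPM of 12 members in every library (points; Acod1 on a log axis with 0 drawn at 0.05), with the group mean ± SD (n = 3) beside them for the others. Acod1 lies between 5137 and 5472 CPM in all 6 activated libraries, Idh1 lies between its M0 and IFNγ + LPS levels when DGAT1i is added to IFNγ + LPS, and Idh3a is lowest there.

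With T863 added to IFNγ + LPS, Acod1 was not called, and Idh3a and Idh3b of IDH3, Sdha, Sdhb and Sdhd of succinate dehydrogenase, and subunits of pyruvate and 2-oxoglutarate dehydrogenase fell. The members that rose were Idh1, the citrate exporter Slc25a1 and Mpc1. Of the 34 members, 3 rose, 17 fell and 14 did not pass by edgeR's quasi-likelihood test, against 13.5% of all genes tested that rose and 16.3% that fell. The median log2 fold change was -0.20 for the members and -0.01 for all genes. DESeq2 fitted to the 6 libraries of this comparison called 9 members lower. The calls it lost were Pdhb, Dlat, Dld, Pdhx and Pdp1 of pyruvate entry, Ogdh and Dlst of 2-oxoglutarate dehydrogenase, and Got1. Over all genes it called 1024 higher (9.07%) and 1093 lower (9.68%).

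Acod1 was at 5349, 5299.7 and 5188 CPM with T863, against 5137, 5472 and 5209 CPM without it. The ranges overlapped, and the difference was 0.00 on the log2 scale with an SE of 0.06 (adjusted p = 0.988). Its rank was 22nd to 24th with T863. The other 34 members went from a sum of 2795 to 2849 CPM to a sum of 2491 to 2617 CPM.

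Idh1 was at 65.3, 62.6 and 69.3 CPM with T863, against 35.4, 39.4 and 44.8 CPM without it. The libraries did not overlap, and Idh1 rose 1.64-fold (log2 0.72, SE 0.09, adjusted p = 6.25e-09), to a level still below the lowest M0 library, at 160.2 CPM. Idh2, which had fallen more with activation, was at 10.4 ± 0.957 CPM with T863 and at 9.68 ± 0.703 CPM without it (log2 0.11, SE 0.16, adjusted p = 0.675). Slc25a1 was at 70.2, 78.4 and 68.6 CPM against 51.4, 59.8 and 53.9 CPM (log2 0.39, SE 0.08, adjusted p = 0.000144), and these libraries did not overlap. Mpc1 was at 60.5, 58.4 and 57.7 CPM against 50.1, 48.8 and 45.7 CPM (log2 0.29, SE 0.09, adjusted p = 0.00686). Mpc2 differed by 0.17 (SE 0.12) and did not pass.

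Idh3a fell the most. It was at 21.8, 16.3 and 17.0 CPM with T863, against 30.1, 26.6 and 32.6 CPM without it, with no overlap (log2 -0.69, SE 0.12, adjusted p = 8.44e-06). Idh3b fell from 127, 134 and 137 CPM to 101, 98.7 and 103 CPM (log2 -0.39, SE 0.06, adjusted p = 1.03e-06). The level with T863 was close to its 3 M0 libraries, at 103, 102 and 99.7 CPM. Idh3g differed by -0.18 (SE 0.10, adjusted p = 0.162). The subunits of IDH3 thus differed in the test result, although the differences between them were not tested. Aco1 (-0.14) and Cs (0.00) did not pass.

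Of the pyruvate dehydrogenase complex, all 5 subunits were called lower by edgeR, against 16.3% of all genes tested. Pdha1 fell by 0.34 (SE 0.07), Pdhx by 0.34 (SE 0.13), Pdhb by 0.27 (SE 0.09), Dlat by 0.26 (SE 0.08) and Dld by 0.25 (SE 0.07) on the log2 scale. Pdp1, the phosphatase that activates it, fell by 0.30 (SE 0.11). Of these 6 members only Pdha1 was also called by DESeq2 on 6 libraries, which called 9.68% of all genes lower. The adjusted p of the others was 0.0535 (Dld) to 0.202 (Pdhx) there. DESeq2 on 12 libraries lost Pdp1 (0.0644) and Pdhx (0.0891), and edgeR on 6 libraries lost Pdhx (0.0558). Pcx differed by 0.19 (SE 0.21) and did not pass. In the 2-oxoglutarate dehydrogenase complex, Ogdh fell by 0.20 (SE 0.06) and Dlst by 0.22 (SE 0.07), with adjusted p of 0.0683 and 0.0751 by DESeq2 on 6 libraries. Sucla2 (0.12), Suclg1 (-0.14) and Suclg2 (-0.39, SE 0.22, adjusted p = 0.188) did not pass.

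Sdha was at 189.8, 186 and 184 CPM with T863, against 231, 237 and 241 CPM without it, with no overlap (log2 -0.34, SE 0.05, adjusted p = 1.50e-06). Sdhb went from 156, 145 and 159 CPM to 133, 121 and 117 CPM (log2 -0.31, SE 0.07) and Sdhd from 144, 146 and 149 CPM to 132, 122 and 116 CPM (log2 -0.25, SE 0.06), both still above every M0 library. Sdhc differed by -0.12 (SE 0.07) and did not pass. Mdh2 fell by 0.30 (SE 0.06). Fh1 (-0.06) and Mdh1 (0.16, adjusted p = 0.0572) did not pass. Slc25a10 fell from 46.3, 41.4 and 42.5 CPM to 32.3, 29.4 and 34.8 CPM (log2 -0.43, SE 0.10, adjusted p = 0.000823), with no overlap. Glud1 fell by 0.31 (SE 0.06) and Got1 by 0.21 (SE 0.08), the latter not called by DESeq2 on 12 (0.111) or 6 libraries (0.204) or edgeR on 6 (0.0719), while Slc25a11 (0.05) and Got2 (-0.16) did not pass.

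Of these 20 calls, 14 held whichever library was left out, among them Idh1, Slc25a1, Mpc1, Idh3a, Idh3b, Sdha, Sdhb, Sdhd, Mdh2, Slc25a10 and Glud1. Dlst lost its call without IFNγ + LPS replicate 2 (adjusted p = 0.0782), Pdhb without that library or IFNγ + LPS + DGAT1i replicate 3 (up to 0.123), and Dlat without IFNγ + LPS replicate 1 or 3 (up to 0.0655). Pdp1 lost it without IFNγ + LPS replicate 2 or IFNγ + LPS + DGAT1i replicate 1 (up to 0.231), Pdhx without IFNγ + LPS replicate 1 or 3 or IFNγ + LPS + DGAT1i replicate 2 or 3 (up to 0.145), and Got1 without IFNγ + LPS replicate 1 or 3 or any of the 3 IFNγ + LPS + DGAT1i libraries (up to 0.159). Neutrophil markers summed to 2.95 to 6.66 CPM without T863 and to 13.6 to 19.8 CPM with it. Of the 3 tested, 2 were higher, against 13.5% of all genes tested. The macrophage markers summed to 7818 to 8876 CPM in the same libraries. The part of the neutrophil markers in these differences was not tested.

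**Figure D3:**
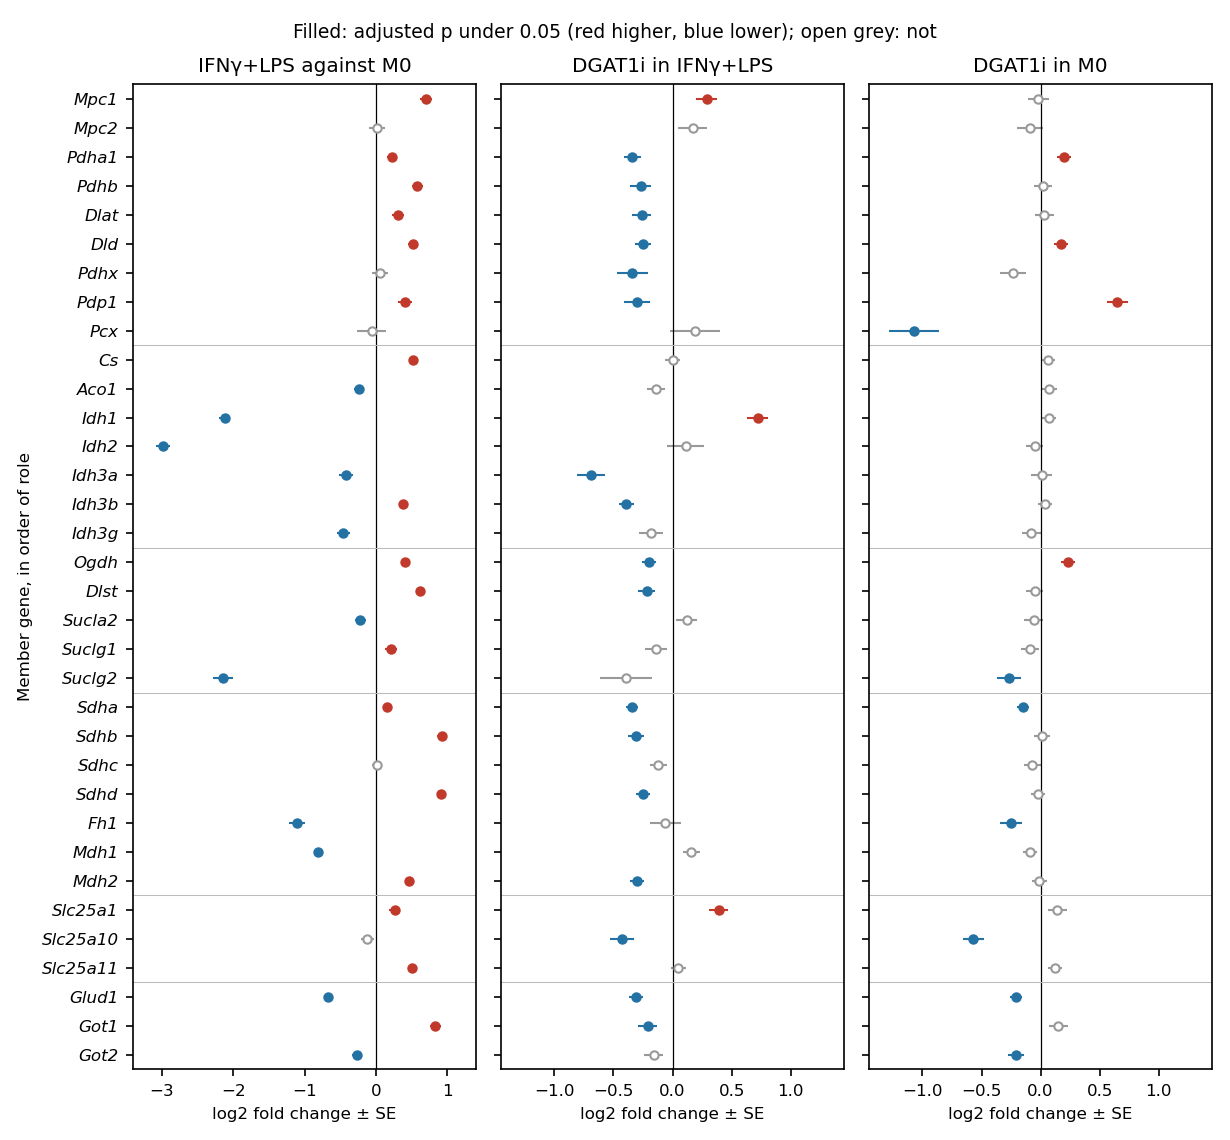
Log2 fold change ± SE of 34 members (Acod1 is left out) in the 3 comparisons, from the fit to all 12 libraries with TMM scaling. Filled points passed an adjusted p of 0.05. The activation panel has its own axis range and spreads from -2.98 (Idh2) to 0.93 (Sdhb), and 12 of its members change sign with library size alone as the scale. The activation panel shares its IFNγ + LPS libraries with the middle panel and its M0 libraries with the right panel.

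In resting macrophages given T863, Pcx, the anaplerotic carboxylase, and Slc25a10, the dicarboxylate carrier, fell, and Pdp1, the pyruvate dehydrogenase phosphatase, rose. Of the 34 members, 4 rose, 7 fell and 23 did not pass by edgeR's quasi-likelihood test, against 11.0% of all genes tested that rose and 13.4% that fell, and the median was -0.02 for the members and 0.00 for all genes. None of the 7 members from citrate to 2-oxoglutarate passed, with values from -0.08 to 0.07, which include Idh1 (0.07, SE 0.06), Idh2 (-0.05, SE 0.07), Idh3a (0.01, SE 0.09), Idh3b (0.04), Idh3g (-0.08), Cs (0.06) and Aco1 (0.07). Fitted with DESeq2 to all 12 libraries, 2 members rose and 4 fell, against 7.15% and 11.2% of all genes, and with library size alone 2 rose and 9 fell, against 7.53% and 17.8%.

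Pcx was at 6.68, 8.26 and 6.13 CPM in M0 and at 3.59, 3.12 and 3.30 CPM in M0 + DGAT1i, which are 44 to 62 reads and 22 to 27 reads per library. The groups did not overlap, and Pcx fell 2.10-fold (log2 -1.07, SE 0.21, adjusted p = 7.41e-05). Slc25a10 was at 44.5, 52.9 and 43.9 CPM in M0 and at 33.9, 28.1 and 33.1 CPM with T863, with no overlap (log2 -0.57, SE 0.09, adjusted p = 1.01e-06). Pdp1 was at 33.0, 28.6 and 38.6 CPM in M0 and at 57.1, 52.0 and 47.9 CPM with T863, with no overlap (log2 0.65, SE 0.09, adjusted p = 2.68e-07). These 3 were the members furthest from 0 apart from Acod1.

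Acod1 had 2, 3 and 7 reads in the M0 + DGAT1i libraries and 0, 2 and 0 in M0. The 12 reads against 2 gave a ratio of 5.84, and 7 of the 12 lay in M0 + DGAT1i replicate 3. The 95% exact interval of 1.30 to 53.8 covers counting error of the pooled reads only. It leaves out the spread between libraries and is no test of a rise. The fit of Acod1 in the resting groups is not used as a test either, since Acod1 passed the filter through the activated libraries. The ranges overlapped, at 0.266 CPM, and these levels compare with a mean of 5273 CPM after IFNγ + LPS.

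Of the other members, Ogdh rose by 0.23 (SE 0.06, adjusted p = 0.000988), Pdha1 by 0.20 (SE 0.06) and Dld by 0.17 (SE 0.06). Glud1 fell by 0.21 (SE 0.05, adjusted p = 0.00155), as did Got2 (SE 0.07), Suclg2 fell by 0.27 (SE 0.10), Fh1 by 0.25 (SE 0.09) and Sdha by 0.15 (SE 0.05). Of these, Pdha1, Dld, Suclg2, Fh1 and Got2 were not called by DESeq2 on 12 or 6 libraries, and Sdha not by DESeq2 on 6. Dld and Pdha1 also lost the call with library size alone, Dld with RLE scaling, and Dld, Suclg2 and Sdha with no filter on low counts (adjusted p over all these losses 0.0551 to 0.194). Among the pyruvate entry members that did not pass, Mpc1 (-0.02), Mpc2 (-0.09), Pdhb (0.02) and Dlat (0.03) lay closer to 0 than Pdhx (-0.23). The others that did not pass were Dlst (-0.05), Sucla2 (-0.06), Suclg1 (-0.09), Sdhb (0.01), Sdhc (-0.07), Sdhd (-0.02), Mdh1 (-0.09), Mdh2 (-0.01), Slc25a1 (0.14), Slc25a11 (0.12) and Got1 (0.15).

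Only 5 of these 11 calls held whichever library was left out, those of Pdp1, Pcx, Ogdh, Slc25a10 and Glud1. Dld lost its call without any of the 6 libraries (adjusted p up to 0.167), Suclg2 without M0 replicate 2 or 3 or any M0 + DGAT1i library (up to 0.154), and Fh1 without any M0 library or M0 + DGAT1i replicate 1 or 2 (up to 0.294). Sdha lost it without M0 replicate 1 or 2 or M0 + DGAT1i replicate 1 or 3 (up to 0.135), Pdha1 without M0 replicate 3 or M0 + DGAT1i replicate 1 or 3 (up to 0.106), and Got2 without M0 replicate 2 or M0 + DGAT1i replicate 1 or 2 (up to 0.171).

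The responses to T863 in the 2 states were then compared directly, as the response in IFNγ + LPS minus that in M0, by edgeR's quasi-likelihood test of that difference. It was above 0 for 3 of the 34 members and below 0 for 9, against 8.66% and 9.80% of all genes tested. Pdp1, at 0.65 in M0 and -0.30 in IFNγ + LPS, differed by -0.95 (SE 0.14, adjusted p = 1.52e-06). Pcx, at -1.07 in M0 and 0.19 in IFNγ + LPS, differed by 1.26 (SE 0.30, adjusted p = 0.00141). Idh1, at 0.07 and 0.72, differed by 0.65 (SE 0.11, adjusted p = 9.27e-06), and Idh3a, at 0.01 and -0.69, by -0.70 (SE 0.15, adjusted p = 0.000420). The pyruvate and 2-oxoglutarate dehydrogenase members Pdha1 (-0.54), Dld (-0.42) and Ogdh (-0.43) each had a response above 0 in M0 and below 0 in IFNγ + LPS. Slc25a10 fell in both states, by 0.57 and 0.43, and the difference of 0.14 (SE 0.14, adjusted p = 0.543) did not pass.

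**Figure D4:**
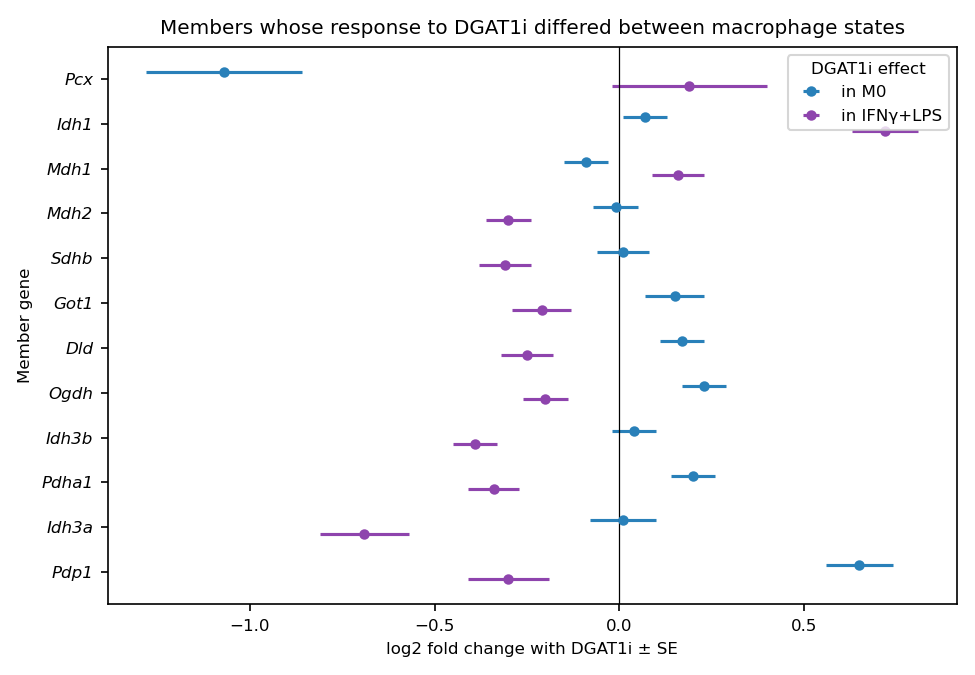
Log2 fold change ± SE with DGAT1i in M0 (blue) and in IFNγ + LPS (purple) for the 12 members other than Acod1 whose responses differed at an adjusted p of 0.05. Pcx and Pdp1 stand out in M0, at -1.07 and 0.65, and Idh1 and Idh3a in IFNγ + LPS, at 0.72 and -0.69.

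Levels per kilobase of the longest coding transcript, which allow genes to be set beside each other, gave the order among members. In M0 the members with the highest levels were Glud1 (76.2 ± 3.27 CPM per kb), Idh1 (75.5 ± 6.90), Sdha (72.7 ± 2.58) and Sdhb (70.6 ± 2.73), and these neighbours did not differ beyond their SD. The lowest were Acod1 (0.0338), Pcx (1.69), Pdp1 (7.95) and Suclg2 (8.37). In IFNγ + LPS the order was led by Acod1 (2010.2 ± 67.2), Sdhb (134 ± 6.32) and Sdhd (119 ± 1.68), and ended with Idh2 (5.55 ± 0.403), Suclg2 (1.89 ± 0.129) and Pcx (1.63 ± 0.112). The 4 succinate dehydrogenase subunits were at 72.7 (Sdha), 70.6 (Sdhb), 29.1 (Sdhc) and 63.3 (Sdhd) CPM per kb in M0 and at 81.5, 134, 29.3 and 119 CPM per kb in IFNγ + LPS. In M0 + DGAT1i they were at 65.5, 71.1, 27.8 and 62.5 CPM per kb. The IDH3 subunits Idh3a, Idh3b and Idh3g were at 15.5, 62.9 and 42.9 CPM per kb in M0 and at 7.12, 62.3 and 27.4 CPM per kb in IFNγ + LPS + DGAT1i.

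Ratios between genes within a library do not depend on the scaling. The ratio of Sucla2 to Suclg2, the ATP-forming against the GTP-forming subunit, was 2.60 ± 0.0968 (SD, n = 3) in M0, 3.01 ± 0.250 in M0 + DGAT1i, 9.82 ± 0.168 in IFNγ + LPS and 14.0 ± 1.22 in IFNγ + LPS + DGAT1i. Suclg2 was counted in 28 to 36 reads per library in IFNγ + LPS and in 21 to 24 reads with T863 added, which limits that ratio. The ratio of Idh1 to Idh2 was 1.73 ± 0.235 in M0, 1.87 ± 0.164 in M0 + DGAT1i, 3.13 ± 0.373 in IFNγ + LPS and 4.82 ± 0.704 in IFNγ + LPS + DGAT1i. For both pairs the activated libraries lay above all resting libraries, and those with T863 above those without it. The ratio of Mdh1 to Mdh2 was 1.01 ± 0.0484 in M0 and 0.421 ± 0.0326 in IFNγ + LPS, and 0.580 ± 0.0300 with T863 added. The ratio of Got1 to Got2 was 0.550 ± 0.0613 in M0 and 1.18 ± 0.0857 in IFNγ + LPS. The ratio of Mpc1 to Mpc2 was 1.32 ± 0.138 in M0 and 2.11 ± 0.00846 in IFNγ + LPS. In these 3 pairs too the activated libraries did not overlap with M0, and the direction was toward the mitochondrial enzyme for malate dehydrogenase and toward the cytosolic enzyme for the aminotransferase. The ratios were not tested, and these are statements about the libraries alone.

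**Figure D5:**
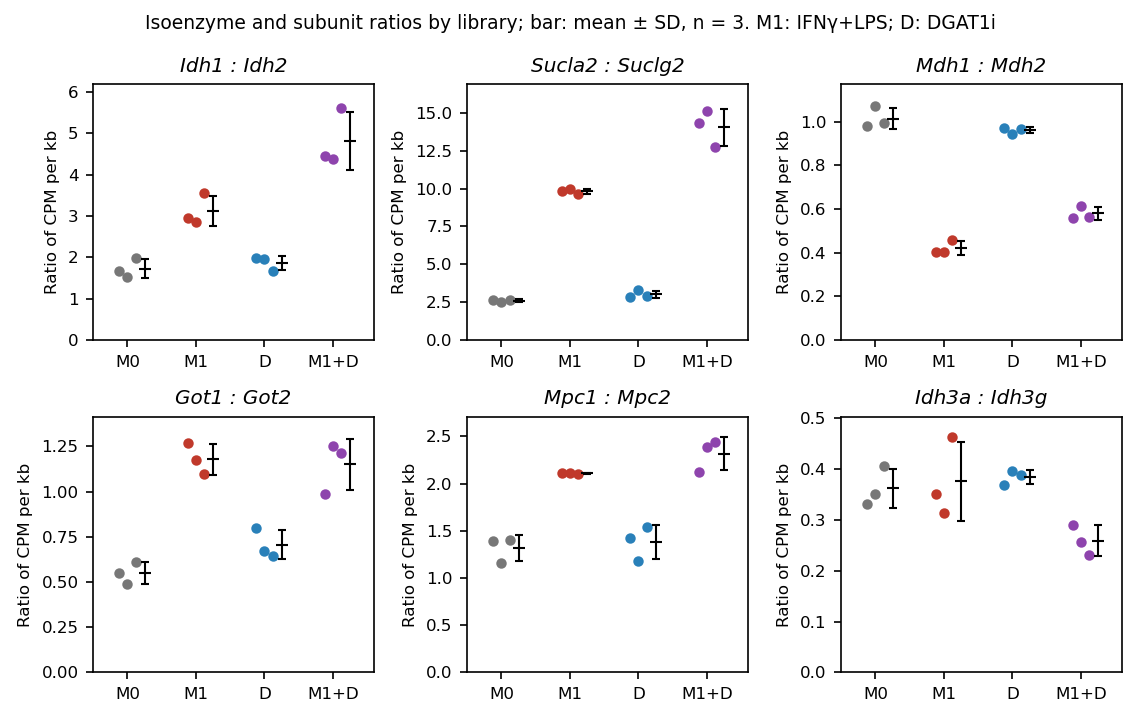
Ratio of CPM per kilobase between paired isoenzymes or subunits in each library (points), with the group mean ± SD (n = 3). Sucla2:Suclg2 and Idh1:Idh2 are higher in the 6 activated libraries and higher again with DGAT1i, Mdh1:Mdh2 is lower in the activated libraries, and Idh3a:Idh3g is lowest in IFNγ + LPS + DGAT1i.

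A list of 43 genes next to this pathway (kinases, assembly factors, anaplerotic and glutamine enzymes and further carriers) had 32 members that passed the filter. With IFNγ + LPS, 8 of the 32 rose and 17 fell, against 37.1% and 36.2% of all genes tested, with a median of -0.39. With library size alone 5 were higher and 21 lower, against 19.9% and 59.5%. On the log2 scale Slc25a22, a glutamate carrier, rose by 2.37 (SE 0.08), Glul, glutamine synthetase, fell by 2.52 (SE 0.07) and Slc1a5, a glutamine transporter, fell by 2.36 (SE 0.13). Of the kinases that switch pyruvate dehydrogenase off, Pdk1 (-0.78, SE 0.08) and Pdk2 (-1.10, SE 0.23) fell, Pdk3 (0.71, SE 0.14) rose under TMM (0.24 and not called with library size alone), and Pdk4 had 0 reads in all libraries. Acly, which cleaves cytosolic citrate to acetyl-CoA, fell by 0.19 (SE 0.06).

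With T863 in IFNγ + LPS, 9 of the 32 rose and 5 fell, against 13.5% and 16.3% of all genes tested, with a median of 0.30. DESeq2 on 6 libraries called 5 higher and 4 lower, against 9.07% and 9.68%. Gpt, an alanine aminotransferase (1.05, SE 0.29), Glul (0.77, SE 0.09), Me1, the cytosolic malic enzyme (0.72, SE 0.21), Pdk3 (0.62, SE 0.12) and Pdk1 (0.34, SE 0.08) rose. Pdk2 (0.57, SE 0.27) did not pass. Acly fell by 0.31 (SE 0.06). Gpt lost its call without IFNγ + LPS + DGAT1i replicate 1 (adjusted p = 0.0506), and Me1 without IFNγ + LPS replicate 1 (0.0683). With T863 in M0, 1 of the 32 rose and 5 fell, against 11.0% and 13.4% of all genes tested, among them Slc1a5 (-0.51, SE 0.10), Pdpr, a regulator of the pyruvate dehydrogenase phosphatase (-0.39, SE 0.09), and Me2, the mitochondrial malic enzyme (-0.33, SE 0.09, adjusted p = 0.0557 without M0 + DGAT1i replicate 2). Acly (-0.06), Pdk1 (0.10), Pdk2 (-0.03) and Pdk3 (-0.01) did not pass there.

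The difference between the 2 responses passed for 11 of these genes, 7 above 0 and 4 below, against 8.66% and 9.80% of all genes tested. It was 1.21 (SE 0.37) for Gpt, 0.77 (SE 0.10) for Glul, 0.75 (SE 0.13) for Me2 and 0.63 (SE 0.19) for Pdk3. It was -0.25 (SE 0.08) for Acly. The call was lost for Gpt without M0 replicate 3 or IFNγ + LPS + DGAT1i replicate 1 (adjusted p up to 0.0699), for Pdk3 without M0 replicate 2 (0.0705), and for Acly without replicate 3 of either group with T863 or IFNγ + LPS replicate 2 (up to 0.0676). The call of Acly was also lost by DESeq2 on 12 libraries and with library size alone, and Me1 with T863 in IFNγ + LPS was not called by DESeq2 on 6 libraries.

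Some members could share reads with other genes. Exons of Mpc1, Pdha1, Idh3b, Mdh1, Slc25a10, Slc25a11 and Got2 overlap, by 5 to 603 bases, with exons of a gene on the opposite strand, and the kit named in the labels (NEBNext Single Cell/Low Input) does not mark strand, whereas the methods of the study name a stranded kit. Near-identical copies cover part of the transcripts of Mpc1, Got2 and Suclg2. The pseudogene Mpc1-ps matches 27.2% of the longest Mpc1 transcript and had 583 reads over the 12 libraries, against 2858 for Mpc1. The copies of Suclg2 and Got2 in the table had at most 23 reads.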

How the data were processed

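RNA of 12 libraries of mouse bone marrow-derived macrophages was sequenced. The authors deposited raw read counts per Ensembl gene in a single table. The genome build is GRCm38 per the submitters' processing notes, which also name DESeq2. Aligner, counter and annotation release: not given in the sources used here. IDs were matched, without version, to GENCODE release M21 (47224 of 47937 IDs), and promoter windows came from RefSeq.

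Counts were filtered with filterByExpr, scaled by TMM and fitted with edgeR 4.0.16 in R 4.3.3, with 1 mean per group over all 12 libraries and the robust quasi-likelihood test. P-values were adjusted by Benjamini-Hochberg over all 11760 genes tested, and a gene was called at an adjusted p under 0.05. Contrasts were IFNγ + LPS against M0, T863 within each state, and the difference of those 2 responses. The first shares libraries with each of the others. The scripts were tested on simulated data. Levels are TMM-scaled CPM. Lengths were those of the longest coding transcript, and copies were sought with BLAST 2.17.0. Intervals for reads of Acod1 are exact and conditional on the total, at 95%. Intervals cover counting error only, since reads are not independent molecules.

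The 35 members, the list of 43 neighbouring genes, the markers and the motifs were chosen with earlier results of these data known. All members are named. Of the neighbours, Acly and the Pdk genes are named (1 further gene of the rule is not reported here), plus in each comparison the 3 called genes with the largest change and an average log2 CPM of at least 2. Alternatives were RLE scaling, library size alone, no filter or a mean CPM of at least 1, DESeq2 1.42.0 on 12 or 6 libraries, edgeR on 6 libraries, an adjusted p under 0.1, a replicate block, and leaving out each library.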

Additional observations from a re-analysis of the deposited data

Results flagged for a closer look

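For 12 members other than Acod1 the response to T863 in IFNγ + LPS differed from that in M0 by edgeR's quasi-likelihood test of the difference itself, given here on the log2 scale as the response in IFNγ + LPS minus that in M0. It was above 0 for Pcx (1.26), Idh1 (0.65) and Mdh1 (0.25). It was below 0 for Pdp1 (-0.95), Idh3a (-0.70), Pdha1 (-0.54), Idh3b (-0.44), Ogdh (-0.43), Dld (-0.42), Got1 (-0.36), Sdhb (-0.32) and Mdh2 (-0.29). For Acod1 the fitted value was -2.31. It rests on 12 reads in M0 + DGAT1i against 2 in M0, depends on the prior count of the fit and is not used as a test, since Acod1 passed the filter through the activated libraries.

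The test of the difference held for Pdha1, Dld, Pdp1, Pcx, Idh1, Idh3a, Idh3b and Ogdh whichever library was left out. Sdhb lost it without M0 + DGAT1i replicate 1 (adjusted p = 0.0736) and Mdh2 without M0 replicate 2 or IFNγ + LPS + DGAT1i replicate 2 (up to 0.0584). Got1 lost it without M0 replicate 1 or 2, M0 + DGAT1i replicate 1 or 3, or IFNγ + LPS replicate 1 (up to 0.0852). Mdh1 lost it without M0 replicate 2 or 3, M0 + DGAT1i replicate 2, any IFNγ + LPS library, or IFNγ + LPS + DGAT1i replicate 1 or 2 (up to 0.0962). Mdh2 and Got1 also lost it by DESeq2 on 12 libraries (0.0627 and 0.0863) and with library size alone (0.0540 and 0.0587), and Mdh1 by DESeq2 on 12 libraries (0.0539) and with no filter on low counts (0.189).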

How the results depend on the processing

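Acod1 is left out of the counts of members in this paragraph. Scaling to library size alone gave 5 of the 34 members higher and 20 lower with IFNγ + LPS, and 2340 genes higher and 7002 lower over all genes. It turned the sign of Mpc2 (-0.456), Pdha1 (-0.246), Dlat (-0.159), Pdhx (-0.407), Pdp1 (-0.062), Idh3b (-0.089), Ogdh (-0.064), Suclg1 (-0.260), Sdha (-0.305), Sdhc (-0.463), Mdh2 (-0.008) and Slc25a1 (-0.210) there. For T863 in M0 it called 2 members higher and 9 lower, and 885 genes higher and 2092 lower over all genes. DESeq2 on 6 libraries called 9 members lower with T863 in IFNγ + LPS, and 1024 genes higher and 1093 lower. For T863 in M0, DESeq2 called 2 members higher and 4 lower on 12 libraries, 2 higher and 3 lower on 6, and over all genes 825 higher and 1286 lower on 12 and 839 higher and 1136 lower on 6. The causes were not tested.

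With 1 library left out and Acod1 counted, T863 in M0 gave 2 to 5 members higher (2 without M0 replicate 3 or M0 + DGAT1i replicate 3) and 3 to 7 lower (3 without M0 replicate 2 or M0 + DGAT1i replicate 1). The counts were 18 to 19 and 10 to 11 with IFNγ + LPS, 3 to 4 and 14 to 17 for T863 in IFNγ + LPS, and 2 to 4 and 8 to 11 for the difference. Part of the range for T863 in M0 and for the difference is the call of Acod1, which is not used as a test. That call was lost without M0 replicate 1 or 3 or M0 + DGAT1i replicate 3. Over all genes these fits called 996 to 1373 higher and 1274 to 1644 lower for T863 in M0, 4202 to 4468 and 4054 to 4310 with IFNγ + LPS, 1303 to 1598 and 1602 to 1969 for T863 in IFNγ + LPS, and 869 to 982 and 1005 to 1178 for the difference. Deviations from the group means of samples with the same replicate number correlated at -0.0217 to 0.0687 over the 18 pairs, and nothing in the labels pairs them. Every sample of IFNγ + LPS correlated best with its own number in both groups with T863, and the reverse, as a hint from the data, and this did not hold for the other pairs of groups. With the replicate block, 19 members rose and 11 fell with IFNγ + LPS, and none of the 140 member results changed its call. RLE scaling changed 1 of 140 and edgeR on 6 libraries 2 of 104. Depth limits Acod1 without IFNγ + LPS and, at 22 to 62 reads per library, Pcx, and Suclg2 at 21 to 36 reads in the activated libraries. Among the named neighbouring genes it limits Gpt, at 11 to 33 reads in the activated libraries, Me1, at 14 to 44 reads per library, and Pdk2, at 16 to 62.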
